A study of Mus musculus with 8 samples.

Results

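The genes described here are 10 receptors and ligands of the tumour necrosis factor (TNF) superfamily that lymphocytes use. They are the receptors Cd27, Tnfrsf4, Tnfrsf9, Tnfrsf18, Tnfrsf25 and Tnfrsf1b and the ligands Tnfsf10, Tnfsf11, Ltb and Lta. They were taken by name, with every probe set of the array annotated to one of those symbols only. All 10 had such a probe set, 16 of the 45141 probe sets in all, among 17097 genes named in this way. A gene was represented by its brightest probe set and tested if that was above its array's median on at least 2 of the 8 arrays. This left 11583 genes, and 10 of the 10 members were among them. Lta passed this filter through its 4 preproNK arrays alone, so its pass and its stage difference are not independent.

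Affymetrix arrays of the one-colour kind, 8 in all, measured RNA of bone marrow progenitors of mice. The 4 groups of 2 arrays were wild type (WT) all lymphoid progenitors (ALP), Nfil3 knockout (KO) ALP, WT prepro NK cells (preproNK) and KO preproNK. Nfil3 is a bZIP transcription factor needed for natural killer (NK) cell development, and the title of the series concerns how its requirement differs along that path. The cells of all 4 groups, controls included, came from reporter mice with GFP under the Id2 gene, whose marrow was depleted of lineage-positive cells, sorted and lysed without culture. The RNA was then amplified for 23 cycles. Replicate 1 and replicate 2 mark 2 processing dates. Not given in the sources used here are the age of the mice, the making of the knockout allele, the surface markers of the sort and the number of mice per sample. The p-values therefore measure only the spread between arrays, part of which may be technical. Whether Cd27 was among the sorting markers is not known.

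Most ligands of the TNF superfamily are membrane proteins that act as trimers, and their receptors carry cysteine-rich domains outside the cell. Receptors without a death domain (Cd27, Tnfrsf4, Tnfrsf9, Tnfrsf18, Tnfrsf1b) recruit TRAF adaptors and pass the signal to NF-kB and kinase cascades. Tnfrsf25 has a death domain, which binds the adaptor Tradd. In lymphocytes these receptors costimulate T and NK cells, and Cd27 also marks stages of NK cell maturation in mice. Lymphotoxins (Lta and Ltb) are made by activated lymphocytes and by lymphoid tissue inducer cells, which use them to build lymph nodes.

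A level below is the deposited log2 value minus the median of all probe sets on that array. A level below 0 is treated as near background, since the files carry no detection calls. Differences are limma fits on the deposited log2 values, which depart from differences of the levels by up to 0.15. A gene was called at a Benjamini-Hochberg adjusted p under 0.05 over the 11583 genes.

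The arrays bore out the labels in part. Nfil3 had levels of 2.92 and 1.37 in WT ALP and -0.52 and 0.14 in KO ALP. It was low in both preproNK groups, at 0.73 and 0.47 in WT and -0.14 and -0.44 in KO. Whether its probe set lies in the deleted part is not known from the files. Flt3, a receptor of early lymphoid progenitors, lay between 3.97 and 5.21 on the ALP arrays and between -0.23 and 0.37 on the preproNK arrays. Ncr1, a defining receptor of NK cells, was below the array median on all 8 arrays. The WT preproNK replicate 2 array stood apart, with the smallest SD over all probe sets, 1.39, followed by WT ALP replicate 2 with 1.55, against 1.66 to 1.88 on the other arrays. The correlation of WT preproNK replicate 2 with the other array of its group was 0.621, below its 0.747 with WT ALP replicate 2. Several results that rest on it are given with and without it.

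The first question was whether the receptors and ligands differ between the 2 stages. Tnfrsf25, Ltb and Tnfrsf18 were higher in preproNK than in ALP cells, with rises of 3.04, 2.87 and 2.46 on the log2 scale in the mean of WT and KO. They were 3 of 10 members called, all 3 higher, where 3.38% of all tested genes were called and 1.77% were called higher. The members were chosen with earlier results of these data known. Comparisons of their counts and medians with all genes therefore describe the list and do not test it. Cd27 was the only member with a negative difference, and it was not called. Of the 10 members, 9 had a positive difference in both replicate pairs, where each pair averages WT and KO. In WT cells alone 6 did, and in KO cells alone 8. The share of all genes with such signs was not counted. The median of the members' mean stage differences was 0.80 against -0.01 over all genes. For 5 members (Tnfrsf9, Tnfrsf18, Tnfrsf25, Ltb and Lta) each of the 4 preproNK arrays lay above each of the 4 ALP arrays, while 10.8% of all tested genes had non-overlapping stages in either direction. These are bulk samples, so a higher level per cell and a larger share of expressing cells cannot be told apart.

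**Figure D1:**
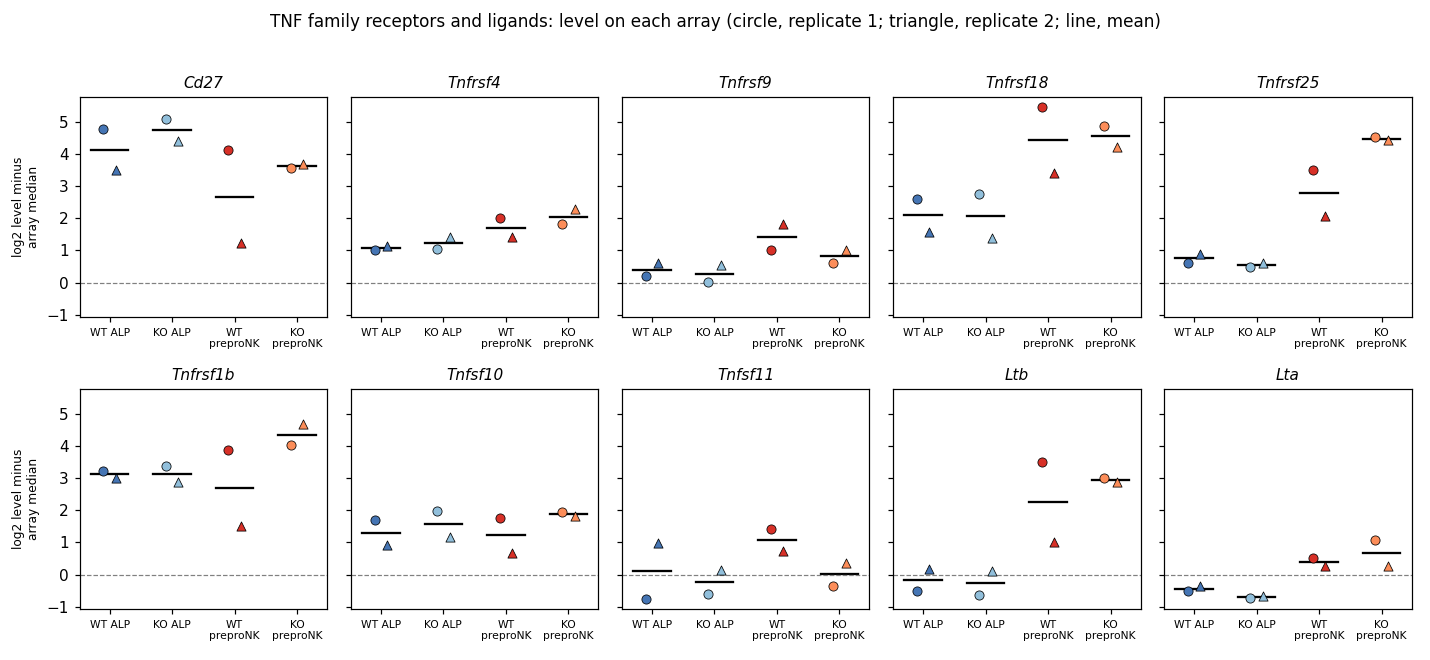
Level of each of the 10 genes on every array (log2 value minus the array median) by group. Circles are replicate 1, triangles replicate 2 and lines the group means. Tnfrsf25, Tnfrsf18, Ltb, Lta and Tnfrsf9 have all 4 preproNK arrays above all 4 ALP arrays, and the WT preproNK replicate 2 array lies well below replicate 1 for Cd27, Tnfrsf1b and Ltb.

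Tnfrsf25 (death receptor 3), the receptor of the cytokine TL1A on T cells and innate lymphoid cells, was the member with the smallest adjusted p. Its levels were 0.61 and 0.90 in WT ALP, 0.47 and 0.61 in KO ALP, 3.51 and 2.06 in WT preproNK and 4.51 and 4.43 in KO preproNK. The 2 preproNK groups did not overlap each other or the ALP arrays, and KO preproNK was the higher. The mean stage difference was 3.04 (SE 0.33, 95% interval 2.28 to 3.79), or 8.21-fold, with an adjusted p of 0.00464 in limma. In KO cells alone the rise was 3.95 (SE 0.46), or 15.5-fold, with an adjusted p of 0.00852 in limma. It was the only member called there, where 1.75% of all genes were called and 1.22% were called higher. Without either WT preproNK array Ltb (adjusted p 0.00553) and Tnfrsf18 (adjusted p 0.0377) joined it in KO cells, where the calls among all genes rose to 4.58%. In WT cells alone the difference was 2.12, with an adjusted p of 0.22. It was 2.72 without WT preproNK replicate 2 (adjusted p 0.0175) and 1.52 without replicate 1 (adjusted p 0.0579). The call for the mean was lost without KO preproNK replicate 1 (adjusted p 0.0528). The call in KO cells was lost without any of its own 4 arrays, with adjusted p from 0.0957 to 0.148, when 1 group is left with a single array that is assumed to vary like the others.

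Tnfrsf18 (GITR), a costimulatory receptor of regulatory and activated T cells, had levels of 2.60 and 1.58 in WT ALP and 2.76 and 1.38 in KO ALP. In preproNK cells its levels were 5.45 and 3.42 in WT and 4.86 and 4.21 in KO. All preproNK arrays were above all ALP arrays, WT and KO overlapped at both stages, and replicate 1 exceeded replicate 2 in every group. Between the stages the mean difference was 2.46 (SE 0.49, 95% interval 1.32 to 3.60), or 5.51-fold, with an adjusted p of 0.0415 in limma. The difference was nearly the same in WT (2.43) and KO (2.49) cells, and neither alone was called (adjusted p 0.35 and 0.179). In WT it was 3.33 without WT preproNK replicate 2 and 1.54 without replicate 1, with adjusted p of 0.0534 and 0.162. When replicate number entered as a block, both were called, with adjusted p of 0.0428 and 0.0124, against 0.578% and 3.88% of all genes called in those fits. The call for the mean was lost when any 1 ALP array or KO preproNK array was left out, with differences of 2.14 to 2.78 and adjusted p from 0.0962 to 0.219. It was also lost with the arrays centred on their medians (adjusted p 0.0877) and with no filter on dim probe sets (adjusted p 0.0738).

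Tnfrsf4 (OX40), a costimulatory receptor of activated T cells and the gene next to Tnfrsf18 in the mouse genome with no protein-coding gene between them, moved less. Its levels were 1.00 and 1.13 in WT ALP, 1.05 and 1.41 in KO ALP, 2.00 and 1.40 in WT preproNK and 1.81 and 2.29 in KO preproNK. The stages overlapped narrowly, between WT preproNK replicate 2 and KO ALP replicate 2. Its mean stage difference was 0.78 (SE 0.27), with an adjusted p of 0.212.

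Tnfrsf9 (CD137), an activation-induced costimulatory receptor of T and NK cells, had low levels on its brightest probe set. They were 0.19 and 0.61 in WT ALP, 0.02 and 0.54 in KO ALP, 1.00 and 1.80 in WT preproNK and 0.62 and 1.02 in KO preproNK. The stages were separated only narrowly, between WT ALP replicate 2 and KO preproNK replicate 1, and the mean difference of 0.83 (SE 0.34) had an adjusted p of 0.318. The other 2 probe sets of Tnfrsf9 lay below the array median on all 8 arrays.

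Cd27, the receptor of Cd70 and a marker of early lymphoid cells, had the opposite order. Its levels were 4.76 and 3.49 in WT ALP, 5.09 and 4.38 in KO ALP, 4.11 and 1.21 in WT preproNK and 3.57 and 3.68 in KO preproNK. KO preproNK lay below KO ALP with no overlap, while the WT arrays overlapped. The mean stage difference was -1.23 (SE 0.57, 95% interval -2.56 to 0.10), with an adjusted p of 0.399. The mean was -0.57 without WT preproNK replicate 2 (adjusted p 0.445), and the difference in WT cells went from -1.37 to -0.05. Without WT preproNK replicate 1 the mean was -1.89 (adjusted p 0.0176) and the difference in WT cells -2.69 (adjusted p 0.0321).

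Tnfrsf1b (TNF receptor 2), the receptor of membrane-bound TNF on lymphocytes, had levels of 3.23 and 2.998 in WT ALP and 3.39 and 2.89 in KO ALP. Its preproNK levels were 3.88 and 1.51 in WT and 4.01 and 4.69 in KO. The WT preproNK arrays enclosed the whole range of the ALP arrays, and the KO preproNK arrays were above the other 6. Its mean difference between the stages was 0.45 (SE 0.47), with an adjusted p of 0.828. Its second probe set gave 0.67. Without WT preproNK replicate 2 the mean difference on the first was 0.98, and the difference in WT cells turned from -0.33 to 0.73.

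Ltb (lymphotoxin beta), the membrane anchor of the lymphotoxin heterotrimer, was near background in ALP cells, with levels of -0.50 and 0.18 in WT and -0.64 and 0.11 in KO. In preproNK cells the levels were 3.49 and 1.02 in WT and 2.998 and 2.87 in KO. Every preproNK array was above every ALP array, and the 2 WT preproNK arrays enclosed the KO preproNK pair. For the mean of both genotypes the stage difference was 2.87 (SE 0.51, 95% interval 1.70 to 4.03), with an adjusted p of 0.0258 in limma. With the ALP values below the array median set to that median, the estimated rise was 5.75-fold. That is a point estimate, which leaves out the spread between arrays. The difference in WT cells was 2.51 (adjusted p 0.343), 3.62 without WT preproNK replicate 2 (adjusted p 0.0173) and 1.40 without WT preproNK replicate 1 (adjusted p 0.13). In KO cells it was 3.22, with an adjusted p of 0.0833, or 0.0462 with the replicate block. The call for the mean was lost when any 1 ALP array or KO preproNK array was left out, with differences of 2.65 to 3.08 and adjusted p from 0.0509 to 0.161. Median centring and the fit without a filter on dim probe sets gave 0.0521 and 0.0515.

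Lta (lymphotoxin alpha), the subunit that is secreted alone or joins Ltb, lies beside it with Tnf between them. Its levels were -0.51 and -0.37 in WT ALP, -0.73 and -0.65 in KO ALP, 0.52 and 0.25 in WT preproNK and 1.06 and 0.28 in KO preproNK. All 4 ALP arrays were below the array median and all 4 preproNK arrays above it. The mean stage difference was 1.15 (SE 0.27), with an adjusted p of 0.0729. With the replicate block the adjusted p was 0.0354, where 7.36% of all genes were called, and 4 of 10 members were. Without WT preproNK replicate 1 it was 0.0477. With the ALP values set to the array median, the estimated rise was 1.44-fold.

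The promoters of Ltb and Tnfrsf18 are shown because both genes were called between the stages and the letters of an NF-kB site were found in only one of them. Each is the 250 bases before the annotated start in RefSeq on GRCm38.p6, read 5′ to 3′ on the gene's plus strand, Ltb at chr17:35194257-35194506 and Tnfrsf18 at chr4:156026072-156026321. Capitals mark matches, on either strand, to the loose form of the NF-kB site, which is GGG, 5 bases of any kind and CC. The kappa light chain enhancer site, the textbook NF-kB site, is one instance of it.
Ltb: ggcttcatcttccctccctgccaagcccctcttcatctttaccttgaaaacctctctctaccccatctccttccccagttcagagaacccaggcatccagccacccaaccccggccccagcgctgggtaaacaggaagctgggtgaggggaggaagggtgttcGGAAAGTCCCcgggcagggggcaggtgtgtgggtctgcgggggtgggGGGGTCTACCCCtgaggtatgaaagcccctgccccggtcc
Tnfrsf18: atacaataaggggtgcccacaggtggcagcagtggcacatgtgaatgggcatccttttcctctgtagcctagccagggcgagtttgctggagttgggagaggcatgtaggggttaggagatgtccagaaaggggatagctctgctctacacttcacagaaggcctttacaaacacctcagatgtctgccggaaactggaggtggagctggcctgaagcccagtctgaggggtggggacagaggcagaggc
Ltb was the only one of the 10 members with the kappa light chain enhancer site, which is the first run of capitals in its window, read on the minus strand. That site is in 0.14% of 32851 promoter windows. The loose form was in the windows of 7 of 10 members, Ltb included and Tnfrsf18 not, but it is in 45.8% of all windows. A member counted if any of its windows matched, and Tnfrsf9 and Tnfrsf25 have more than a single window. The count of members and the share of windows thus differ in unit. The bZIP letters that Nfil3 binds were also searched on both strands. TTACGTAA (0.113% of windows) and TTATGTAA with its reverse complement TTACATAA (0.819%) were in 0 of 10 members' windows. A match is only a description of the letters, and the absence of one in this window says nothing of the factor.

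Tnfsf10 (TRAIL), a death-inducing ligand that NK cells use, had levels of 1.69 and 0.93 in WT ALP and 1.98 and 1.15 in KO ALP. Its preproNK levels were 1.77 and 0.66 in WT and 1.94 and 1.82 in KO. The stages overlapped within each genotype, with replicate 1 the higher of each pair, and the mean stage difference was 0.17 (SE 0.33), with an adjusted p of 0.943. One of its 3 probe sets was below the array median on all 8 arrays.

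Tnfsf11 (RANKL), which lymphoid tissue inducer cells and activated T cells carry, had levels of -0.76 and 0.98 in WT ALP and -0.61 and 0.15 in KO ALP. In preproNK cells they were 1.41 and 0.74 in WT and -0.35 and 0.37 in KO. The WT ALP arrays differed from each other by more than the group means of any 2 groups did. Its mean stage difference was 0.66 (SE 0.46), with an adjusted p of 0.675. Its second probe set was below the array median on all 8 arrays.

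**Figure D2:**
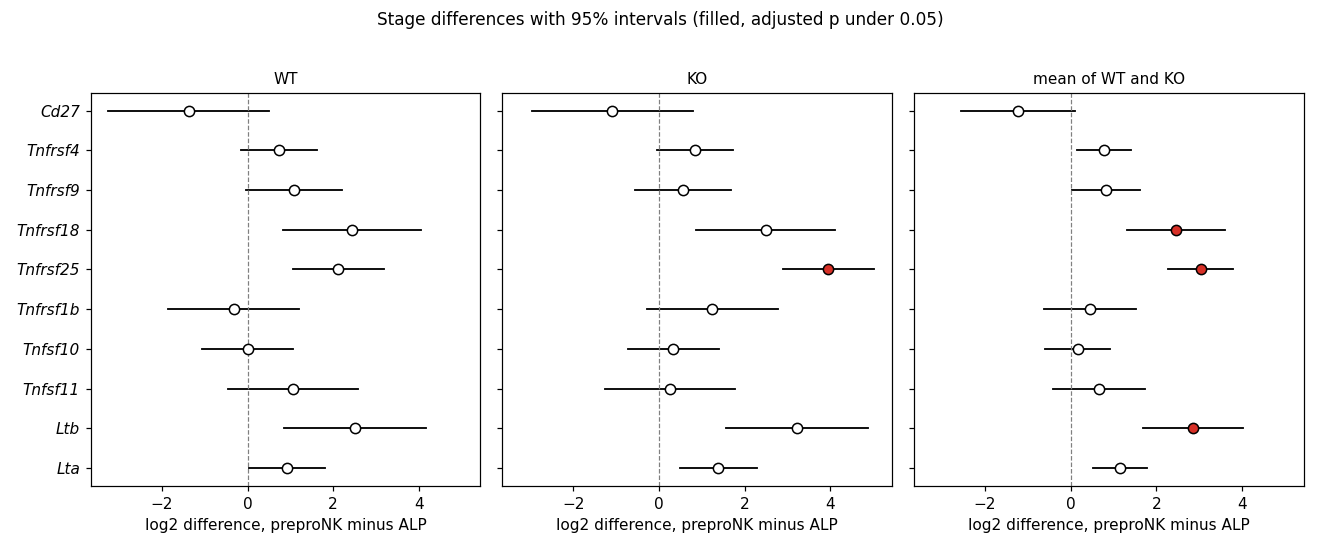
Fitted log2 difference between preproNK and ALP with its 95% interval for each gene, in WT, in KO and in their mean. Filled points have an adjusted p under 0.05: Tnfrsf25 in KO, and Tnfrsf25, Ltb and Tnfrsf18 in the mean. Cd27 lies to the left of 0 in all 3 panels.

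In WT cells alone 0 of 10 members were called, where 0.095% of all genes were. Of the 10 members, 4 had an unadjusted p under 0.05 (Tnfrsf18, Tnfrsf25, Ltb and Lta), against 7.36% of all genes. Without WT preproNK replicate 2, 2 members (Tnfrsf25 and Ltb, both higher) were called, with 1.42% of all genes. Without WT preproNK replicate 1 instead, only Cd27 was called among the members, as lower, with 7.11% of all genes. The WT and KO arrays had non-overlapping stages for 6 and 8 members, where 24.2% and 42.4% of all genes had.

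**Figure D3:**
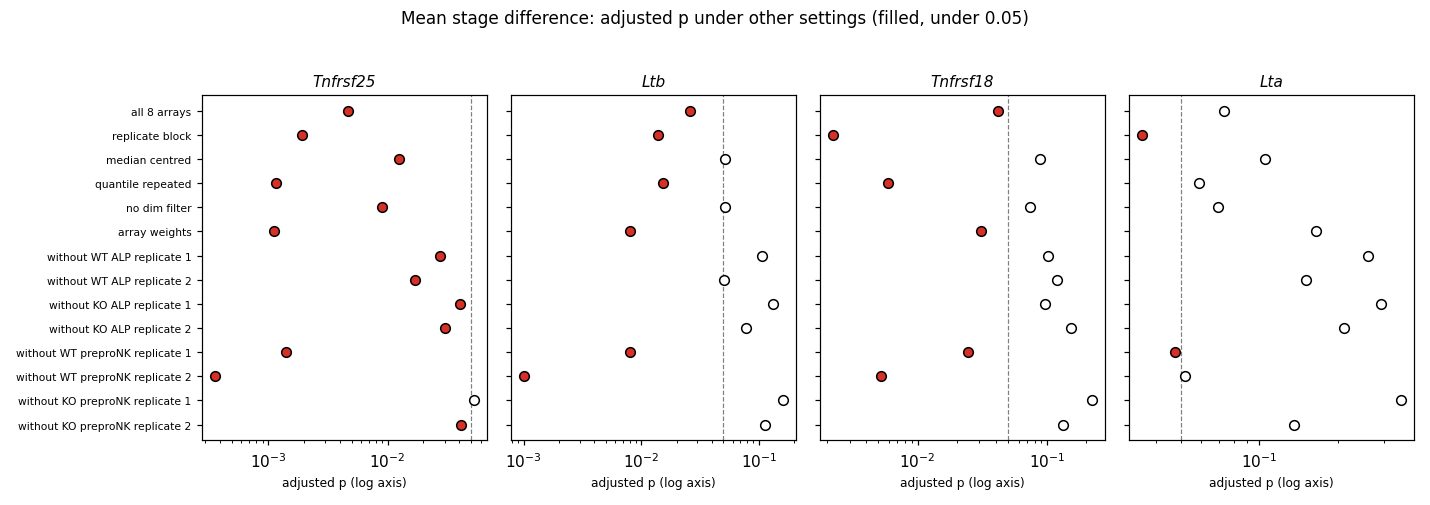
Adjusted p in limma (log axis) of the preproNK against ALP difference, in the mean of WT and KO, for Tnfrsf25, Ltb, Tnfrsf18 and Lta. Each row is a way of processing the data or an array left out. Filled points are under 0.05, which the dashed line marks.

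Markers of several other lymphocytes were higher in preproNK than in ALP cells, while those of B cells were lower. Of 10 listed T cell markers, 9 were measured and 4 to 6 of them lay above the array median on each ALP array, against 9 on each preproNK array. Their summed level was 3.50 to 5.34 on the ALP arrays, 13.9 to 27.0 in WT preproNK and 39.7 to 43.7 in KO preproNK. Cd3e, a defining T cell marker, was below the median on all ALP arrays and had levels of 4.46 and 2.32 in WT and 6.01 and 6.45 in KO preproNK. The 4 measured markers of type 2 innate lymphoid cells, of 6 listed, summed to 1.84 to 3.31 in ALP, 9.51 to 22.1 in WT preproNK and 17.6 to 18.2 in KO preproNK. The 5 measured markers of IL-17-producing gamma delta T cells, of 7, summed to -1.58 to -1.10 in ALP, 1.70 to 7.99 in WT preproNK and 15.7 to 17.4 in KO preproNK. The 3 measured markers of lymphoid tissue inducer cells, of 6, summed to -0.76 to -0.33 in ALP, 1.08 to 6.88 in WT preproNK and 10.4 to 11.2 in KO preproNK. The 9 NK cell markers, all measured, summed to 0.24 to 0.88, 6.20 to 10.7 and 20.5 to 21.7 in the same order. The part of these cells in the levels of the receptors and ligands was not tested.

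The second question was whether loss of Nfil3 altered these genes. In ALP cells 0 of 10 members were called and 0% of all genes were, with 0 members and 0.0432% of genes at an unadjusted p under 0.05. The differences ran from -0.41 (Tnfsf11) to 0.54 (Cd27). Tnfrsf25 and Lta had both KO ALP arrays below both WT ALP arrays, by fitted differences of -0.29 and -0.33, where 15.5% of all genes had non-overlapping groups in either direction.

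In preproNK cells 0 of 10 members were called in limma, again with 0% of all genes called. With the replicate block 0 of 10 members were called, against 0.0863% of genes. Tnfrsf25 was the only member with an unadjusted p under 0.05, against 5.4% of all genes. It was higher in KO cells by 1.54 (SE 0.46, 95% interval 0.47 to 2.61) in limma, with an adjusted p of 0.613. The pairs of equal replicate number gave 0.97 (number 1) and 2.11 (number 2), and the fit gave 0.94 without WT preproNK replicate 2.

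Tnfrsf1b was higher by 1.51 (SE 0.66, adjusted p 0.613), but by 0.10 in the replicate 1 pair against 2.92 in the replicate 2 pair and by 0.45 in the fit without WT preproNK replicate 2. Its second probe set gave 0.73. Tnfsf11 was lower by a log2 difference of -1.22 (SE 0.65, adjusted p 0.613), with -1.79 and -0.64 in the pairs, and its dim second probe set gave -0.50. Neither difference was called.

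For Cd27, Ltb, Tnfrsf4 and Tnfrsf18 the replicate pairs pointed in opposite directions. Cd27 differed by -0.58 in pair 1 and by 2.21 in pair 2, and Ltb by -0.53 and 1.59. Without WT preproNK replicate 2, the fitted differences turned from 0.81 to -0.51 for Cd27 and from 0.53 to -0.58 for Ltb. Without WT preproNK replicate 1 instead, 3 members were called (Cd27, Tnfrsf1b and Tnfrsf25), but so were 21.9% of all genes. Tnfrsf9 was lower in both pairs (-0.42 and -1.04), Tnfsf10 higher in both (0.13 and 0.90), and Lta higher in one and lower in the other. Without WT preproNK replicate 2 the fitted differences went from -0.73 to -0.20 for Tnfrsf9 and from 0.51 to 0.08 for Tnfsf10. For 4 members (Tnfrsf25, Tnfrsf1b and Tnfsf10 higher, Tnfsf11 lower) the KO and WT arrays did not overlap, where 39.5% of all genes did not.

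**Figure D4:**
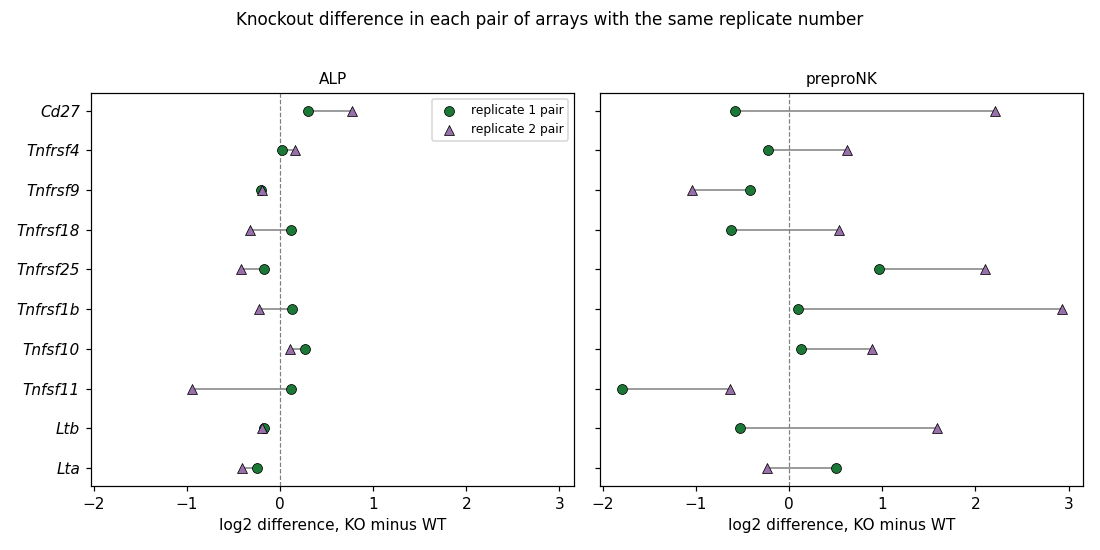
Log2 difference between KO and WT in each pair of arrays of the same replicate number, for ALP and preproNK. In ALP cells the points lie within 1 of 0, and in preproNK cells the pairs of Cd27, Ltb, Tnfrsf4, Tnfrsf18 and Lta fall on both sides of 0, while both pairs of Tnfrsf25 lie to the right and both of Tnfsf11 to the left.

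The difference between the knockout effects of the 2 stages was tested as an interaction. It was called for 0 of 10 members and for 0% of all genes, with 1 member and 1.58% of genes at an unadjusted p under 0.05. That member was Tnfrsf25, with an interaction of 1.83 (SE 0.65) and an adjusted p of 1 in limma. It was 1.23 without WT preproNK replicate 2 and 2.43 without WT preproNK replicate 1.

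The rest of the superfamily and its signalling genes were counted from 4 lists of 63 genes. Of these, 44 were tested, 11 were above the array median on fewer than 2 arrays, and 8 had no probe set of a single symbol. Among 16 tested other receptors, 0 were called in any of the 6 comparisons, and their median stage difference was 0.14 against -0.01 over all genes. The one with the smallest p was Tnfrsf21 (death receptor 6), with -1.51 and an adjusted p of 0.10. With the replicate block 1 was called, Tnfrsf13b (TACI), which fell by 1.06 with an adjusted p of 0.0393. That is 1 of 16, in a fit that called 7.36% of all genes.

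Of 14 other ligands, 5 were tested. Cd70, Tnfsf4 and Tnfsf9, the ligands of Cd27, Tnfrsf4 and Tnfrsf9, were among the 6 too dim to test. Cd40lg (CD40 ligand), the T cell helper ligand, was higher in preproNK cells. Like Lta, it passed the filter through its 4 preproNK arrays alone, so its pass and its stage difference are not independent. Its levels were below 0 on all 4 ALP arrays, 0.93 and 0.67 in WT preproNK and 3.54 and 2.91 in KO preproNK. The mean stage difference was 2.82 (SE 0.31, adjusted p 0.00491 in limma), and 4.04 in KO cells (adjusted p 0.00852). With the ALP values set to the array median the estimated rises were 4.04-fold and 9.35-fold. Without KO preproNK replicate 1 these adjusted p were 0.0546 and 0.148, and the call in KO cells was also lost without any of its other 3 arrays (adjusted p 0.0826 to 0.106).

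Tnfsf14 (LIGHT), which shares the lymphotoxin beta receptor with Ltb, had levels of 2.35 and 1.53 in WT ALP and 2.69 and 1.93 in KO ALP. Its preproNK levels were 5.19 and 2.32 in WT and 5.19 and 4.86 in KO, with WT preproNK replicate 2 within the ALP range. Its mean difference of 2.32 had an adjusted p of 0.0729, or 0.0128 with the replicate block, and it was called in 7 of 17 alternatives. It was 1.66 without WT preproNK replicate 1 and 2.98 without replicate 2 (adjusted p 0.0177 and 0.00132), and the adjusted p reached 0.31 without KO preproNK replicate 1. Tnf itself, the gene between Lta and Ltb, had levels of 1.03 to 1.39 on the 4 ALP arrays and the 2 WT preproNK arrays. On the KO preproNK arrays it reached 2.96 and 2.58. Its stage difference in KO cells was 1.64 (adjusted p 0.0764, and 0.0358 with the replicate block, which called 3.88% of all genes). In WT preproNK cells its neighbour genes Ltb and Lta lay above ALP while Tnf did not. The knockout difference in preproNK was 1.40 for Tnf (adjusted p 0.534) and 2.28 for Cd40lg (adjusted p 0.308), and neither was called.

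Of 13 tested adaptors and kinases, 1 was called between the stages in the mean of WT and KO, where 3.38% of all genes were. It was Traf1, an adaptor induced by NF-kB. Its levels were -0.08 to 0.33 on the ALP arrays, 2.31 and 1.38 in WT preproNK and 3.19 and 2.56 in KO preproNK. Its mean stage difference was 2.23 (SE 0.30, adjusted p 0.0103 in limma), and it was 2.65 in KO cells (adjusted p 0.0297). The call for the mean was lost without WT ALP replicate 1 (adjusted p 0.0518), either KO ALP array (0.069 and 0.05004) or either KO preproNK array (0.0889 and 0.0557). The call in KO cells was lost without any of its own 4 arrays, with adjusted p from 0.159 to 0.337. Of 10 NF-kB factors and inhibitors 0 were called, with a median stage difference of 0.58 against -0.01 over all genes. With the block, Tnfaip3 (A20), an inhibitor that NF-kB induces, was called with a difference of 1.23 and an adjusted p of 0.018, against 0.0635 without it. That is 1 of 10, in a fit that called 7.36% of all genes.

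**Figure D5:**
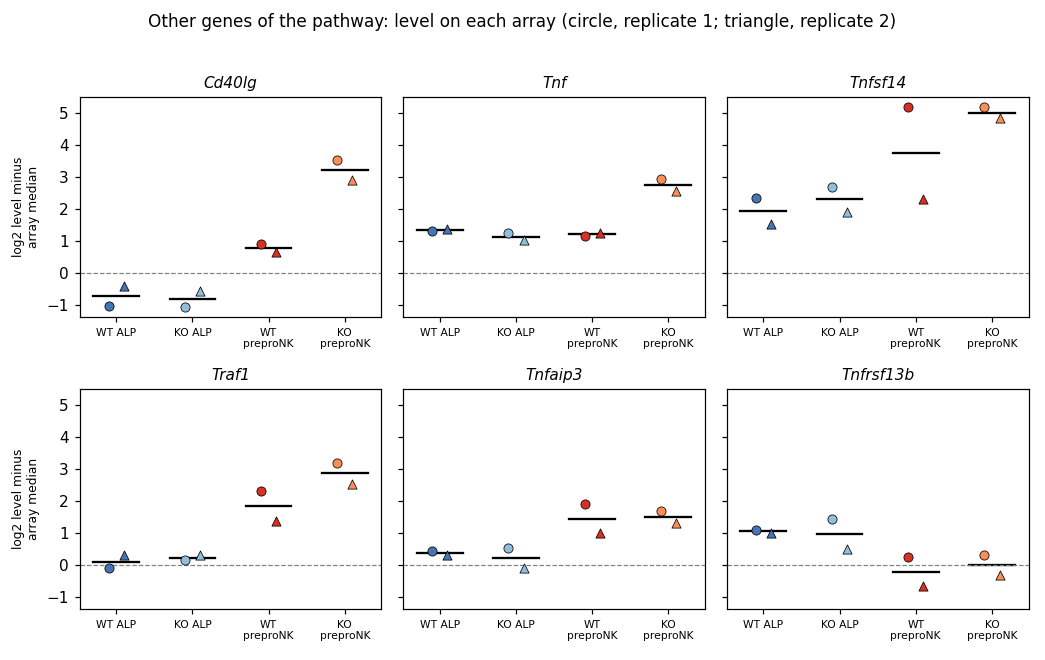
Level of 6 other genes of the pathway on every array (log2 value minus the array's median). Circles are replicate 1, triangles replicate 2 and lines the group means. Cd40lg and Traf1 are higher on all preproNK arrays than on the ALP arrays, and Tnf is higher on the 2 KO preproNK arrays than on the other 6.

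The patterns over the 8 arrays were compared with those of all other tested genes by Pearson's r, as a description over arrays that share 2 stages and 2 dates. For Tnfrsf25 the 3 most alike genes were Txk (0.998), Spock2 (0.997) and Cd3e (0.996). For Ltb they were Sh2d2a (0.998), Skap1 (0.993) and Nt5e (0.988). For Tnfrsf18 they were Tnfaip3 (0.987), Cbx7 (0.982) and Dok2 (0.981). For Cd27 they were Msi2 (0.997), Tia1 (0.995) and Eef1g (0.992). Its level was 1.21 on WT preproNK replicate 2 and 3.49 to 5.09 on the other arrays. The r values of Cd27, that with Tnfrsf9 included, therefore lean on that array. Among the members, Tnfrsf25 and Ltb had an r of 0.956, Ltb and Lta 0.901, the neighbours Tnfrsf4 and Tnfrsf18 0.749, and Cd27 and Tnfrsf9 -0.911.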

How the data were processed

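The authors deposited normalized log2 values for each probe set. The submitters' processing notes name RMA and Partek, with no version or setting given in the sources used here. That the scale is log2 was read from the values, whose medians ran from 3.93 to 4.27 over the arrays. Arrays have no read depth, so precision rests on their number.

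The platform annotation supplied the gene names, with 1 symbol for 28898 probe sets, several for 551 and none for 15692. Of the first, 28689 matched RefSeq and 0 symbols changed. The fit was limma 3.58.1 in R 4.3.3 (lmFit, eBayes), with 4 group means over all 8 arrays and 4 residual degrees of freedom, two-sided, over 6 comparisons. It was tested on simulated data. The members and lists were chosen with earlier results of these data known. Genes named outside the members are those of each list that were called, those gained with the replicate block, or those with the smallest p. The floor at the array median, used for some folds, was set per array after seeing the data. Folds with that floor are point estimates and not lower limits of an interval.

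Replicate numbers stand for processing dates in the series' design text, so they pair the samples. Deviations of replicate 1 from the group mean correlated between every pair of groups, with r from 0.149 to 0.807. The alternatives were the replicate block, median centring, repeated quantile normalization, other filters, single probe sets, array weights and leaving out each array.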

Additional observations from a re-analysis of the deposited data

Results flagged for a closer look

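Tnfrsf25 had knockout effects of opposite sign at the 2 stages in every replicate pair. In ALP cells KO was lower than WT, by log2 differences of -0.17 and -0.41 in the replicate 1 and 2 pairs. The fitted ALP difference was -0.29 (SE 0.46, 95% interval -1.36 to 0.78), and -0.07 without WT ALP replicate 2, so its sign is not settled. The share of all genes with such opposite signs was not counted. In preproNK cells KO was higher, by 0.97 and 2.11. The interaction of 1.83 (SE 0.65) in limma had an unadjusted p of 0.0238 (a model over all genes, not an exact test) and an adjusted p of 1. It was 1.23 without WT preproNK replicate 2 (adjusted p 1) and 2.43 without WT preproNK replicate 1 (adjusted p 0.0846).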

How the results depend on the processing

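For the mean stage difference 3 of 10 members were called. Tnfrsf25 was called there in 16 of 17 alternatives, Ltb and Tnfrsf18 in 9 of 17 each and Lta in 4 of 17. The 17 include a setting chosen after seeing the data. They also include fits that leave a group with a single array, whose spread is taken from the other groups. The count of 3 became 1 with median centring, 1 without the filter on dim probe sets, 7 with the replicate block without WT preproNK replicate 2, and 5 without both narrow-range arrays, a setting chosen after seeing the data. Leaving out 1 array gave 0 to 5. In KO cells the count of 1 became 3 with the replicate block, 4 with array weights, 5 with the block without WT preproNK replicate 2 and 5 without both narrow-range arrays, and 0 to 3 with 1 array left out. In WT cells the count of 0 became 1 with the block, 2 with repeated quantile normalization, 3 with the block without WT preproNK replicate 2 and 4 without both narrow-range arrays, and 0 to 2 with 1 array left out. For KO against WT in preproNK, leaving out 1 array gave 0 to 3, while all other alternatives gave 0 there, and every alternative gave 0 for KO against WT in ALP and for the interaction. For the mean, 2.27% of all genes were called with median centring and 1.73% without that filter. The replicate block called 7.36% for the mean, 3.88% in KO and 0.578% in WT. Array weights called 7.79% in KO, and repeated quantile normalization 0.63% in WT. Calls over all genes in the remaining settings follow below. The mean stage differences of Tnfrsf25, Ltb and Tnfrsf18 stayed above 2 in every alternative, and that of Cd27 below 0. Without both narrow-range arrays, WT ALP and WT preproNK had 1 array each. The WT comparison there sets 1 array against 1, with a spread taken from the KO arrays alone. Counts of that setting are therefore not comparable with the others. The cause of the moved counts was not tested. The block changed no other call among the members.

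Of 1020 recomputed member differences 71 turned sign, none of them called in either fit. Over all genes the calls moved too: without 1 array they ran from 35 to 1058 for the mean stage difference against 391, from 0 to 530 in KO against 203, from 0 to 824 in WT against 11, and from 0 to 2532 for KO against WT in preproNK against 0. With the block they were 852, 449, 67 and 10. The 11 calls in WT (4 higher) became 73 (42 higher) with repeated quantile normalization, 3 (0 higher) with median centring, 6 without the filter and 1 with array weights. In KO 203 became 116 with median centring and 902 with array weights. The weights were equal within each group, 0.314 for both WT preproNK arrays and 2.73 for both KO preproNK arrays. They therefore do not single out WT preproNK replicate 2. With the block without WT preproNK replicate 2 the same 4 counts were 1661, 1238, 431 and 47, and without both narrow-range arrays 1496, 1234, 460 and 98. The last of these settings has 1 array in each WT group, so its counts are not comparable with the others. Median centring moved the median of all genes for KO against WT in preproNK from 0.15 to 0.30. The member differences there rise by 0.15 with it. With 2 arrays a group, the folds of genes with levels below 0 (Lta and Ltb in ALP, Tnfsf11, and Cd40lg in ALP) rest on values near background.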
